A study of Saccharomyces cerevisiae with 10 samples.

Results

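The nuclear RNA polymerases I, II and III of budding yeast are built from subunits that are each encoded by a single gene of the names RPA, RPB, RPC or RPO with a number, or by RET1. The 31 genes so named on the array were taken, out of 5449 named genes, and RPO41, the mitochondrial polymerase, was left out. By their place in the enzymes, 7 genes belong to polymerase I alone, 7 to polymerase II alone and 10 to polymerase III alone, 2 are shared by I and III, and 5 are common to all 3. Their RNA was measured on 10 single-colour Affymetrix arrays of 4 haploid strains taken in mid-log growth from liquid YPAD, a rich medium with adenine. The wild type was W303-1A (WT, 3 arrays). The mutants were hpr1del (hpr1∆::kanMX4, strain SChY58a, 3 arrays), sub2del (sub2∆::HIS3, strain DLY23 sub2∆, 2 arrays) and tho2del (tho2∆::KanMX4, strain RK2-6C, 2 arrays). All 4 strains are MATa and, per the labels, carry the auxotrophic alleles trp1-1, ura3-1, leu2-3,112, ade2-1 and his3-11,15 as well as can1-100. Each deletion was measured in a single named strain, so a deletion and any other difference of its strain cannot be told apart. The arrays of a strain are called biological replicates without a statement that the cultures were separate, and p-values therefore cover only the spread seen here, which may be technical.

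Polymerase I transcribes the large ribosomal RNA genes, polymerase II the mRNA genes, and polymerase III the tRNA and 5S rRNA genes. The enzymes share a core made of a largest and a second-largest subunit that form the active centre, an assembly platform of a paired heterodimer, and small subunits common to all of them. A stalk of paired subunits, a zinc-ribbon subunit and, in polymerases I and III, a dimer that resembles the general factor TFIIF sit at the periphery. HPR1, THO2 and SUB2 encode parts of THO/TREX, a complex that acts in transcription elongation by polymerase II and in mRNA export, and the arrays ask how RNA levels differ when each is missing.

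Each deleted gene read lowest in its own strain. The log2 change was -1.43 for HPR1 in hpr1del, -7.07 for SUB2 in sub2del and -3.26 for THO2 in tho2del. HIS3, which the labels give as mutant in each strain and as the marker of sub2del, read 2282 ± 879 (SD, n = 3) in WT. Its mean was 503 in hpr1del, 498 in tho2del and lowest, at 347, in sub2del. What this says of the WT strain or of the marker in sub2del was not tested. Median intensities of the arrays lay between 1381 and 1572. WT arrays were the most variable, with a mean within-strain SD over the subunit genes of 0.17 on the log2 scale, against 0.05 to 0.07 in the mutants. In WT replicate 1 the subunit genes stood apart: 26 of 31 read lower there than on both other WT arrays, while 2238 of the 5063 probe sets with all WT values did. Cells of RPA43 and RPC37 were empty on every sub2del and tho2del array and that of RPB3 on tho2del replicate 2, so these genes were not tested there.

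In hpr1del most subunit genes did not pass the test. Of 31 tested, 6 rose and 2 fell (limma, Benjamini-Hochberg adjusted p under 0.05), against 45.8% called over all 5450 probe sets tested, 23.0% higher and 22.8% lower. In sub2del 10 of 29 rose and 5 fell, against 61.2% called among all probe sets, 20.9% higher and 40.2% lower. In tho2del 13 of 28 rose and 3 fell, against 57.6% called among all probe sets, 24.8% higher and 32.8% lower. All log2 changes here are of intensity plus an offset of 16, and every mutant was set against the same WT arrays. The median log2 change of the subunit genes was 0.13 in hpr1del, 0.16 in sub2del and 0.22 in tho2del, beside -0.0049, -0.16 and -0.06 over all probe sets tested. Leaving out WT replicate 1 turned the split to 5 higher and 6 lower for hpr1del, 10 and 10 for sub2del and 13 and 6 for tho2del. Over all probe sets the calls then numbered 2789, 2995 and 2817, against 2497, 2834 and 2634 with all arrays. The split of those calls by direction is not given here. Without each array in turn, 4 of the 8 calls in hpr1del, 12 of 15 in sub2del and 9 of 16 in tho2del were kept throughout.

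**Figure D1:**
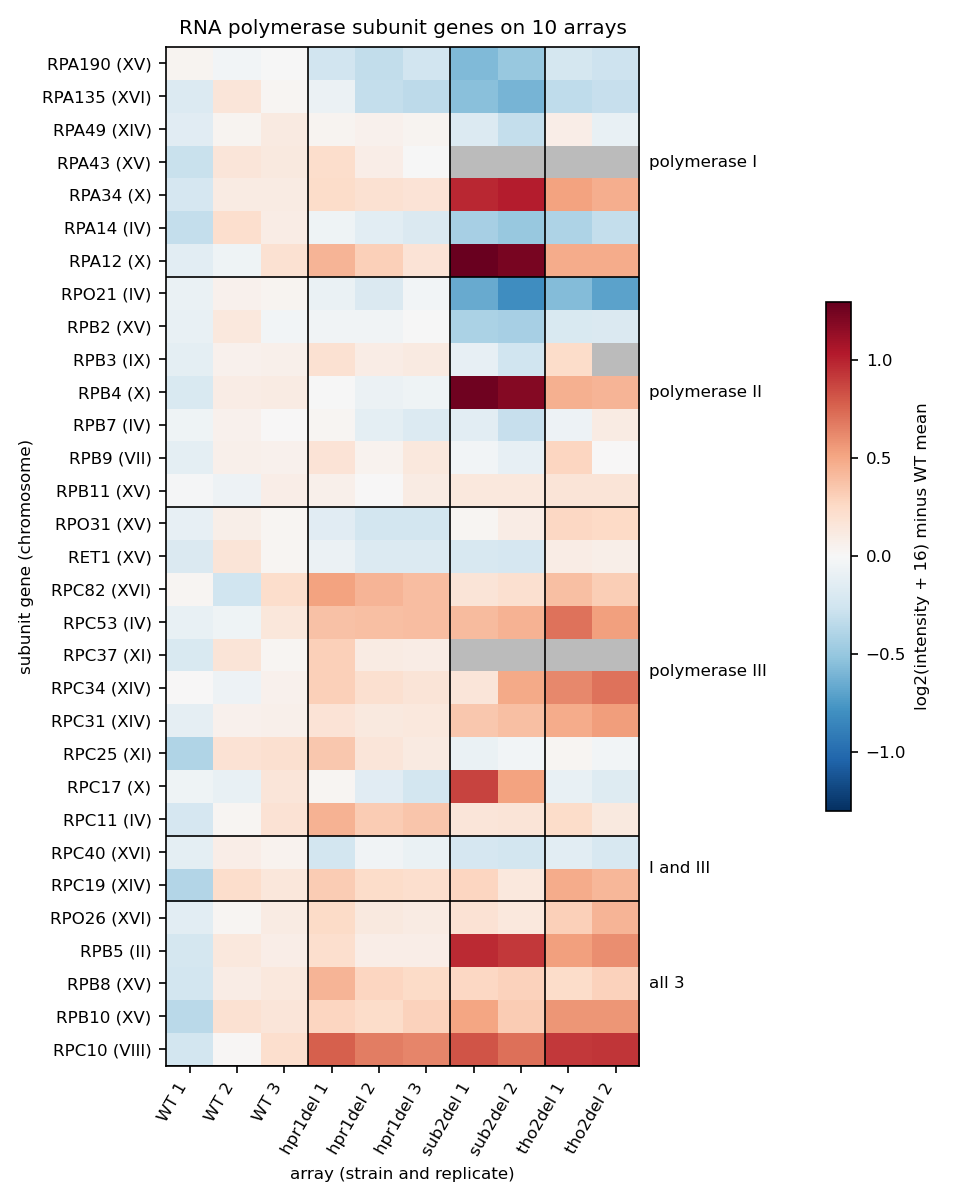
Heat map of the 31 subunit genes (rows, with chromosome, grouped by polymerase) on the 10 arrays (columns), coloured by the log2 of intensity plus 16 minus the mean of the WT arrays; grey cells are empty. RPA34, RPA12, RPB4, RPC17 and RPB5 are highest on both sub2del arrays, and RPC10 is above WT on all 7 mutant arrays.

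**Figure D2:**
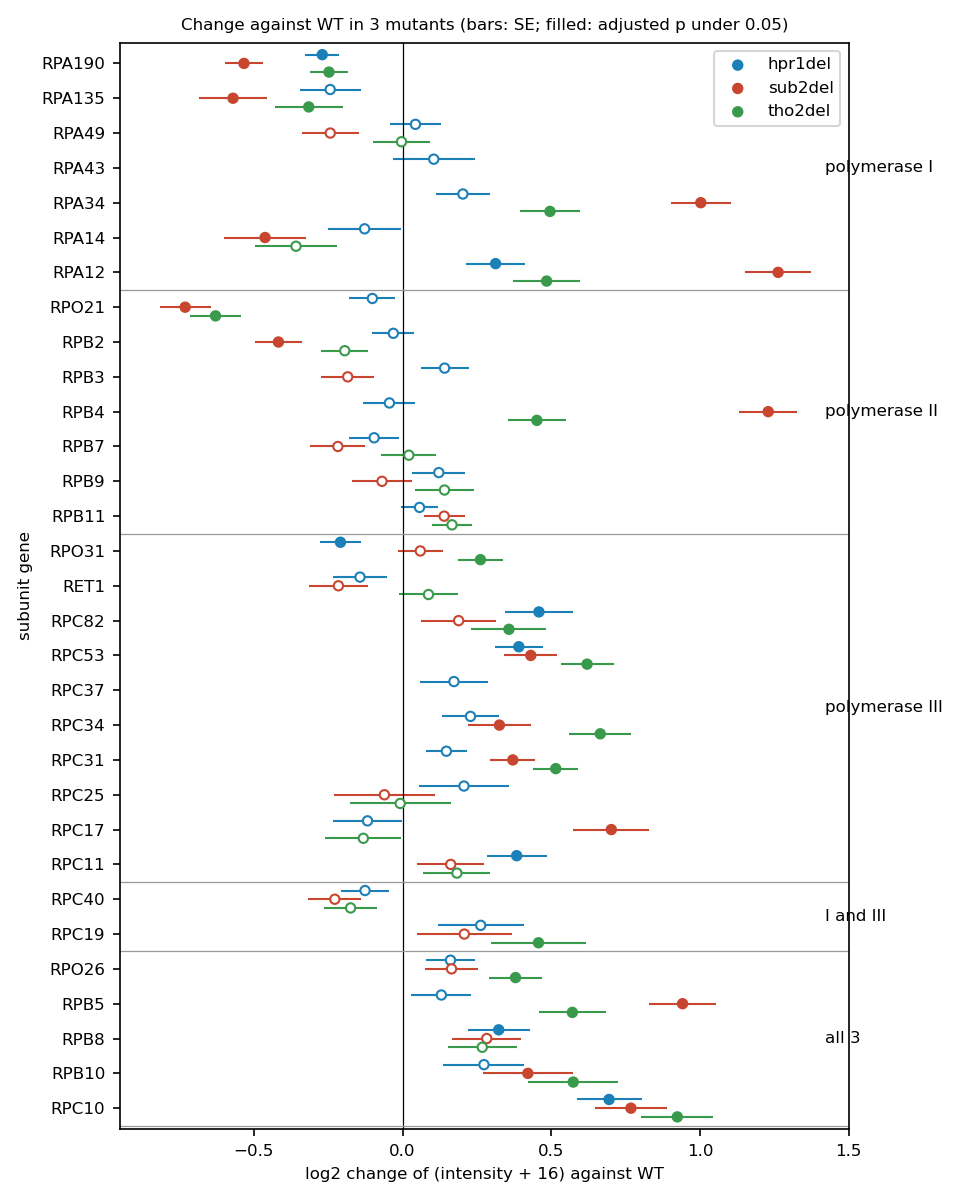
Log2 change of each subunit gene (rows, grouped by polymerase) against WT in hpr1del, sub2del and tho2del, with bars for the SE and filled points for an adjusted p under 0.05. RPC10 and RPC53 lie to the right of 0 in all 3 mutants, RPA190 lies to the left, and RPA12 and RPB4 lie farthest to the right in sub2del.

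Values in sub2del showed a shift of chromosomes II and X against the others, seen in the medians of their probe sets. In sub2del the probe sets of chromosomes II and X had median log2 changes of 0.43 and 0.57 against WT, while the medians of the other 14 chromosomes lay between -0.40 and -0.15. Over both chromosomes together the median was 0.48 and over the others -0.22, a difference of 0.70. The 2 sub2del arrays were alike in this, with medians against the WT mean of 0.47 and 0.42 on chromosome II and 0.59 and 0.57 on chromosome X. In hpr1del the difference between these chromosomes and the others was -0.03 and in tho2del -0.02. DNA copy number was not measured, and the cause of the shift was not tested.

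Of the subunit genes, RPB5 lies on chromosome II, and RPA34, RPA12, RPB4 and RPC17 lie on chromosome X. All 5 rose in sub2del, by 0.70 to 1.26 on the log2 scale, beside 61.6% of the probe sets of these chromosomes that were higher. Of the 24 subunit genes tested elsewhere, 5 rose and 5 fell, with a median of -0.00075, beside 16.3% higher and 43.8% lower among probe sets of the other chromosomes. When the median of each chromosome was subtracted from each array, an alternative added after the shift was seen, 13 subunit genes were higher and 3 lower in sub2del, beside 29.8% and 28.3% of all probe sets. That setting raises genes on the other chromosomes in sub2del. RPB8, RPB11, RPC82, RPC11 and RPO26 then passed the test, while RPA135, RPA14, RPB5 and RPC17 no longer did. The subtraction can move genes by more than the median change of their chromosome. RPB4 went from -0.04 to 0.13 in hpr1del and from 0.45 to 0.65 in tho2del, where chromosome X had median changes of -0.01 and -0.05. RPO26, on chromosome XVI, went from 0.16 to 0.60 in sub2del, beside a median change of -0.25. Values under this setting are thus not changes with only the shift removed.

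**Figure D3:**
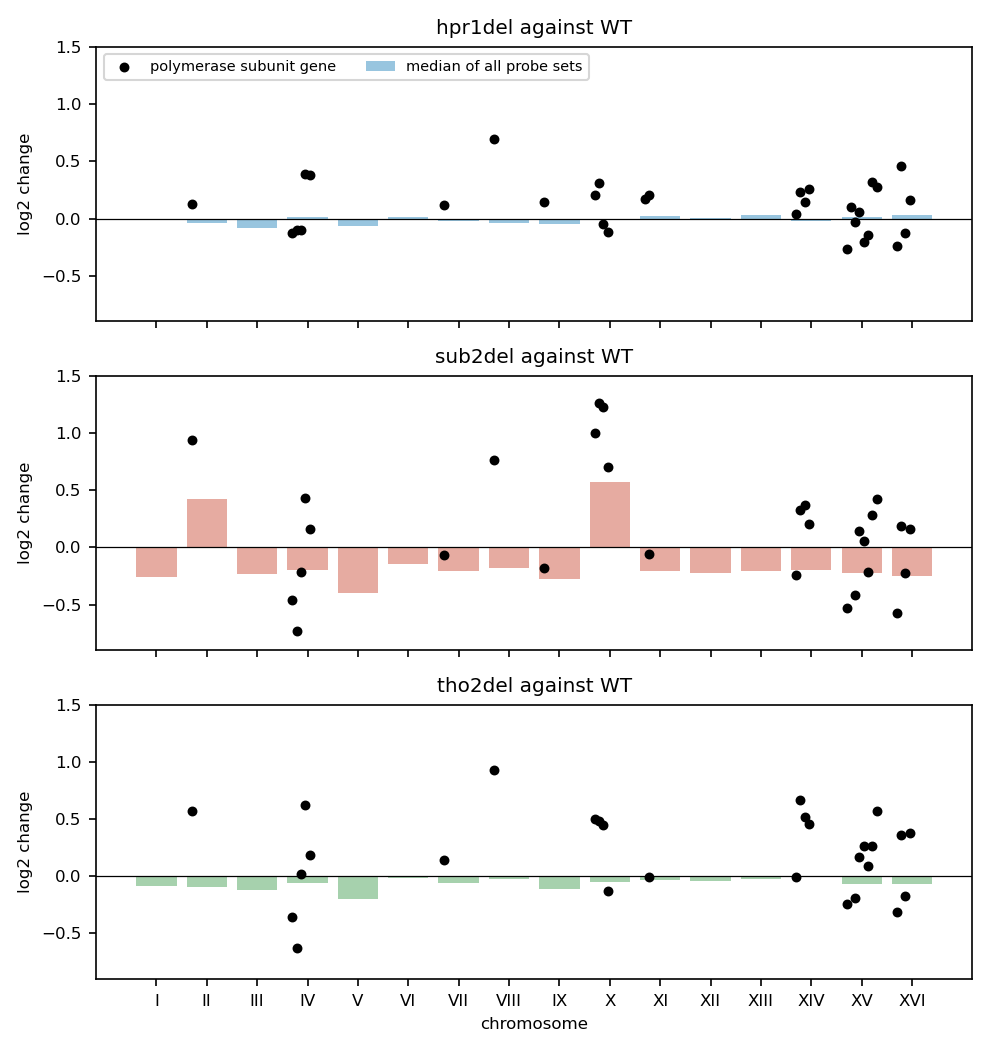
Log2 change against WT (vertical axis) in the 3 mutants (panels) by chromosome (horizontal axis), with bars for the median of all probe sets of each chromosome and a black point for each subunit gene. The medians of chromosomes II and X stand at 0.43 and 0.57 in sub2del, and in hpr1del and tho2del they lie with the others.

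**Figure D4:**
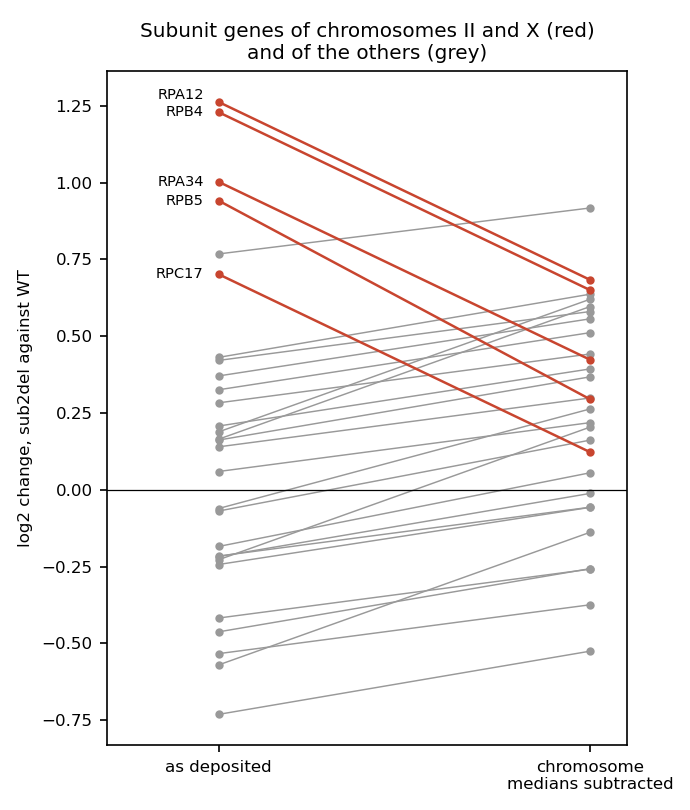
Log2 change of each subunit gene in sub2del against WT, as deposited (left) and after the median of each chromosome was subtracted on every array (right), with genes of chromosomes II and X in red and the others in grey. RPA12 moves from 1.26 to 0.68 and RPC17 from 0.70 to 0.12.

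The genes of the largest subunits, which hold most of the catalytic centre, were lower in the mutants or gave no call, apart from RPO31 in tho2del. RPA190, the largest subunit of polymerase I, read 8496, 8082 and 8263 in WT, 6984, 6652 and 6956 in hpr1del, 5560 and 5873 on the sub2del arrays and 7075 and 6869 on those of tho2del. Every mutant array lay below every WT array, and the sub2del arrays were lowest. RPA190 fell in all 3 mutants, with log2 changes of -0.27 ± 0.06 (SE, limma adjusted p = 0.00528), -0.53 ± 0.06 (0.000122) and -0.25 ± 0.06 (0.00930) in the order hpr1del, sub2del, tho2del. It was the only subunit gene of 28 tested in all 3 comparisons to be lower in each, beside 17.4% of all probe sets. The call in tho2del was lost without tho2del replicate 2.

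RPO21, which encodes Rpb1, the largest subunit of polymerase II with the repeated C-terminal domain, read 3947, 4346 and 4302 in WT and 3955, 3680 and 4101 in hpr1del. On the sub2del arrays it read 2652 and 2396, and on those of tho2del 2832 and 2586. The WT and hpr1del arrays overlapped, and the sub2del and tho2del arrays lay below all of them. RPO21 fell 1.66-fold in sub2del (-0.73 ± 0.09, limma adjusted p = 0.000109) and 1.55-fold in tho2del (-0.63 ± 0.09, 0.000311), and in hpr1del its difference was -0.10 ± 0.08 (0.310). It had the most negative change of all subunit genes in both sub2del and tho2del. Against hpr1del it was lower by 0.63 in sub2del and by 0.53 in tho2del (limma adjusted p = 0.000488 and 0.00184).

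RPO31, the largest subunit of polymerase III, read 3319, 3766 and 3647 in WT, 3228, 3019 and 3023 in hpr1del, 3624 and 3825 on the sub2del arrays and 4298 and 4275 on those of tho2del. All hpr1del arrays lay below WT and both tho2del arrays above it, while sub2del overlapped WT. The log2 changes were -0.21 ± 0.07 in hpr1del (limma adjusted p = 0.0343), 0.06 ± 0.08 in sub2del (0.518) and 0.26 ± 0.08 in tho2del (0.0158). The difference between tho2del and hpr1del was 0.47 ± 0.08 (0.00174), which was kept without each array in turn. The call in hpr1del was lost without hpr1del replicate 2 or 3 or WT replicate 2 or 3, and that in tho2del without either tho2del array.

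Among the second-largest subunits, RPA135 of polymerase I read 10688 ± 1242 (SD, n = 3) in WT, 9015 ± 924 in hpr1del, 7162 ± 216 (n = 2) in sub2del and 8547 ± 120.0 in tho2del. Its WT arrays ranged from 9390 to 11866, and both mutants with 2 arrays lay below that range. It fell in sub2del (-0.57 ± 0.11, limma adjusted p = 0.00229) and, near the threshold, in tho2del (-0.32 ± 0.11, 0.0402). After chromosome medians were subtracted its values were -0.14 and -0.06, and both calls were lost. The median changes of its chromosome, XVI, were -0.25 and -0.07, so the subtraction moved RPA135 by more than these. The call in tho2del was also lost without tho2del replicate 1 or 2 or WT replicate 2 or 3. RPB2 of polymerase II, at 5458 ± 474 in WT, fell in sub2del to 4073 ± 42.6 (-0.42 ± 0.08, 0.00166). It stood at 4756 ± 8.47 in tho2del (-0.19 ± 0.08, 0.0600). RET1 of polymerase III had no call in hpr1del, sub2del or tho2del (-0.14, -0.22 and 0.09).

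**Figure D5:**
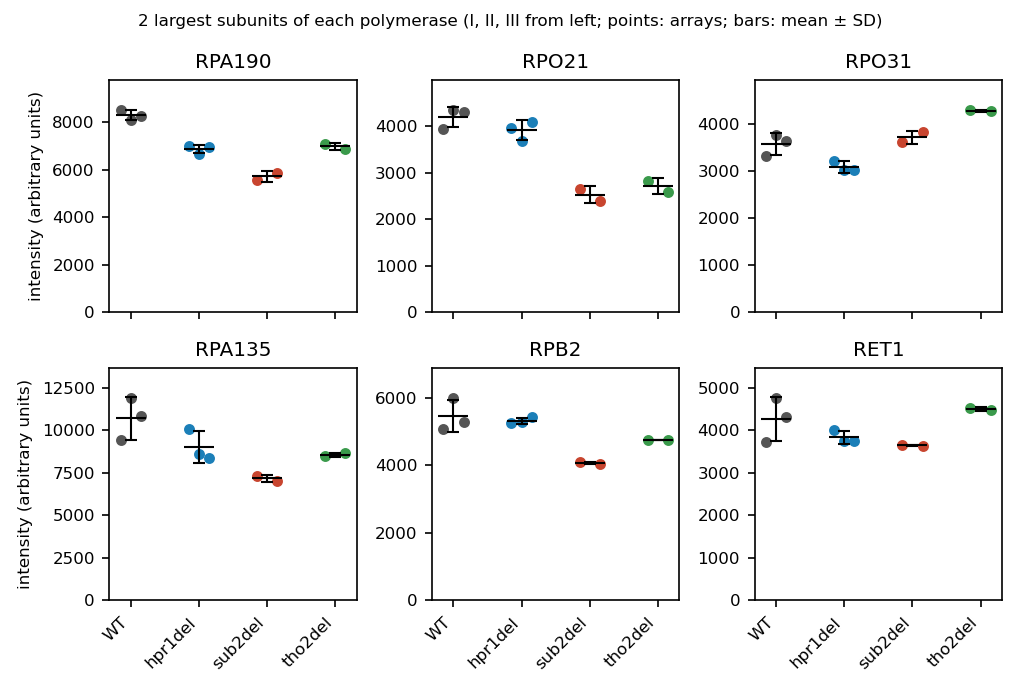
Intensity of the largest (top) and second-largest (bottom) subunit genes of polymerases I, II and III on each array by strain, with mean and SD. RPA190 is below WT on all mutant arrays, RPO21 on those of sub2del and tho2del, and RPO31 is above WT on both tho2del arrays.

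The 6 genes of the largest and second-largest subunits had median log2 changes of -0.18, -0.48 and -0.22 in hpr1del, sub2del and tho2del. Of these 6, 0, 0 and 1 rose and 2, 4 and 3 fell, beside 22.8%, 40.2% and 32.8% of all probe sets that were lower. With chromosome medians subtracted the medians were -0.20 in sub2del and -0.13 in tho2del, and 1, 3 and 2 fell. Of the 25 genes of smaller subunits, 25, 23 and 22 were tested, with medians of 0.16, 0.21 and 0.37. Of those tested, 6, 10 and 12 rose and 0, 1 and 0 fell, beside 23.0%, 20.9% and 24.8% of all probe sets that were higher. In sub2del their median was 0.39 with chromosome medians subtracted, with 13 higher and 0 lower. On the chromosomes other than II and X, the smaller subunits had medians of 0.17, 0.16 and 0.27. Of the 18 tested there in sub2del, 5 rose and 1 fell, beside 16.3% and 43.8% of all probe sets there. With 0 falls in hpr1del there were also 0 at an unadjusted p under 0.05, and in tho2del there was 1. Across the subunit genes the log2 change went down with the annotated length of the gene, with a Spearman rho of -0.48 (n = 31), -0.47 (n = 29) and -0.37 (n = 28), and over all probe sets rho was -0.05, -0.04 and -0.02. Off chromosomes II and X it was -0.54, -0.53 and -0.45 for the subunit genes. These are correlations across genes read on the same arrays, and size in this family goes with the place in the enzyme.

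The subunits common to all 3 polymerases had the highest median change of the 5 classes in each mutant, at 0.27 in hpr1del, 0.42 in sub2del and 0.57 in tho2del. Of these 5 genes, 2, 3 and 4 rose and 0 fell, and at an unadjusted p under 0.05 there were also 0 that were lower. Among all probe sets 23.0%, 20.9% and 24.8% were higher and 22.8%, 40.2% and 32.8% lower. RPC10, which encodes Rpb12, a small zinc-binding subunit of all 3 enzymes, read 3266, 3901 and 4488 in WT. It read 6615, 6139 and 5994 in hpr1del, 6803 and 6346 on the sub2del arrays and 7281 and 7365 on those of tho2del. All 7 mutant arrays lay above the highest WT array. RPC10 was 1.62-fold, 1.70-fold and 1.90-fold higher in hpr1del, sub2del and tho2del, with log2 changes of 0.69 ± 0.11, 0.77 ± 0.12 and 0.92 ± 0.12 (limma adjusted p = 0.00117, 0.000640 and 0.000267). It had the highest change of all subunit genes in hpr1del and tho2del, and its calls were kept without each array in turn.

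RPB10, another small zinc-binding subunit, read 3879, 5678 and 5529 in WT, 6022, 5864 and 6101 in hpr1del, 7069 and 6241 on the sub2del arrays and 7380 and 7389 on those of tho2del. All mutant arrays were above WT, and WT replicate 1 lay far below the other WT arrays. RPB10 rose in sub2del (0.42 ± 0.15, limma adjusted p = 0.0380) and tho2del (0.57 ± 0.15, 0.0107), and each call was lost without either array of the mutant. RPB5, a common subunit near the entry path of DNA, read 4898, 6342 and 6127 in WT, 6702, 6100 and 6109 in hpr1del, 11267 and 10858 on the sub2del arrays and 8331 and 8778 on those of tho2del. The hpr1del arrays overlapped WT, the tho2del arrays lay above both, and the sub2del arrays above all others. It rose by 0.94 ± 0.11 in sub2del (0.000120) and by 0.57 ± 0.11 in tho2del (0.00241). With chromosome medians subtracted, the change in sub2del was 0.29 (limma adjusted p = 0.0504) and that in tho2del 0.64 (0.00127).

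RPB8, an accessory common subunit, rose in hpr1del (0.32 ± 0.10, limma adjusted p = 0.0335), a call lost without each hpr1del array. In sub2del and tho2del its values were 0.28 and 0.27 (0.0628 and 0.0775). RPO26, which encodes Rpb6, rose in tho2del from 6518 ± 551 to 8474 ± 542 (0.38 ± 0.09, 0.00647), and stood at 0.16 and 0.16 in hpr1del and sub2del. Its call in tho2del was lost without tho2del replicate 2.

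The polymerase III subunits as a class had medians of 0.19, 0.19 and 0.26 in hpr1del, sub2del and tho2del, with 3, 4 and 5 genes that rose and 1, 0 and 0 that fell, of 10, 9 and 9 tested. At an unadjusted p under 0.05 there were also 0 lower in sub2del and tho2del. The shares of all probe sets were 23.0%, 20.9% and 24.8% higher and 22.8%, 40.2% and 32.8% lower. Off chromosomes II and X, 3 of 8 tested polymerase III genes rose in sub2del, beside 16.3% of all probe sets there. RPC53, part of the dimer that resembles TFIIF and takes part in termination and reinitiation, read 1340, 1375 and 1585 in WT. It read 1865, 1880 and 1893 in hpr1del, 1903 and 1963 on the sub2del arrays and 2346 and 2074 on those of tho2del. All mutant arrays lay above WT. RPC53 rose by 0.39 ± 0.08, 0.43 ± 0.09 and 0.62 ± 0.09 (limma adjusted p = 0.00449, 0.00282 and 0.000428), and these calls were kept without each array in turn. Its partner RPC37 read 1892 ± 240.2 in WT and 2128 ± 181 in hpr1del (0.17 ± 0.11, 0.260).

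RPC82, RPC34 and RPC31 form the trimer that contacts the initiation factor TFIIIB and helps open the promoter. All 3 rose in tho2del, 2 in sub2del and 1 in hpr1del, beside 24.8%, 20.9% and 23.0% of all probe sets that were higher. RPC34 read 1131, 1074 and 1174 in WT, 1397, 1304 and 1266 in hpr1del, 1254 and 1596 on the sub2del arrays and 1740 and 1849 on those of tho2del. The mutant arrays lay above WT, with tho2del highest and the sub2del arrays far apart. Its change in tho2del was 0.66 ± 0.10 (limma adjusted p = 0.000719) and in sub2del 0.33 ± 0.10 (0.0243), the latter lost without sub2del replicate 2 (0.15) or WT replicate 2 (0.29). RPC31 read 1898, 2145 and 2158 in WT, 2342, 2251 and 2269 in hpr1del, 2632 and 2714 on the sub2del arrays and 2894 and 3019 on those of tho2del. The tho2del arrays were highest and the sub2del arrays next, with no overlap between strains. RPC31 rose by 0.37 ± 0.08 in sub2del (0.00251) and 0.51 ± 0.07 in tho2del (0.000460). RPC82 read 2020, 1650 and 2321 in WT and 2858, 2702 and 2617 in hpr1del. The WT arrays were wide apart, and the hpr1del arrays lay above them. RPC82 rose in hpr1del (0.46 ± 0.11, 0.0107) and in tho2del (0.36 ± 0.13, 0.0370), the latter a call lost without tho2del replicate 1 or 2 or WT replicate 2, and its value in sub2del was 0.19 (0.224).

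The zinc-ribbon subunits act in RNA cleavage by the polymerases. RPA12 of polymerase I, on chromosome X, read 2481, 2636 and 3137 in WT, 3728, 3404 and 3108 in hpr1del, 6716 and 6467 on the sub2del arrays and 3842 and 3830 on those of tho2del. The sub2del arrays lay far above all others, the tho2del arrays above WT and hpr1del, and hpr1del overlapped WT. It was 2.40-fold higher in sub2del (1.26 ± 0.11, limma adjusted p = 2.48e-05) and 1.40-fold in tho2del (0.48 ± 0.11, 0.00555). In hpr1del it rose by 0.31 ± 0.10 (0.0324), a call lost without WT replicate 1, WT replicate 2, hpr1del replicate 1 or hpr1del replicate 2. After chromosome medians were subtracted the values were 0.68 in sub2del and 0.68 in tho2del, both called. With RPC10 and RPC53 it made 3 of 28 subunit genes higher in all 3 mutants, beside 10.2% of all probe sets. RPC11 of polymerase III rose in hpr1del (0.38 ± 0.10, 0.0144), a call lost without hpr1del replicate 1, and its log2 changes were 0.16 and 0.18 in sub2del and tho2del. With chromosome medians subtracted it passed the test in sub2del (0.37, limma adjusted p = 0.0275). RPB9 of polymerase II had no call, at 0.12, -0.07 and 0.14.

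The stalk subunits bind the emerging RNA and, in polymerase II, the dimer can leave the enzyme. RPB4 read 2240, 2754 and 2762 in WT and 2565, 2444 and 2478 in hpr1del. On the sub2del arrays it read 6219 and 5894, and on those of tho2del 3539 and 3510. The hpr1del arrays lay within the WT range, the tho2del arrays above it, and the sub2del arrays above all others. RPB4, on chromosome X, was 2.34-fold higher in sub2del (1.23 ± 0.10, limma adjusted p = 1.44e-05) and 1.37-fold in tho2del (0.45 ± 0.10, 0.00385). Both stood at 0.65 after chromosome medians were subtracted. Its partner RPB7, on chromosome IV, had no call, at -0.10 ± 0.08, -0.22 ± 0.09 and 0.02 ± 0.09 in hpr1del, sub2del and tho2del.

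RPC17 of the polymerase III stalk, also on chromosome X, read 723, 701 and 839 in WT, 765, 679 and 637 in hpr1del, 1396 and 1089 on the sub2del arrays and 703 and 667 on those of tho2del. Only the sub2del arrays lay above WT. It rose in sub2del (0.70 ± 0.13, limma adjusted p = 0.00140), and after chromosome medians were subtracted its value there was 0.12 (0.440). Its partner RPC25 had no call (0.21, -0.06 and -0.01). In the polymerase I stalk, RPA14 fell in sub2del (-0.46 ± 0.14, 0.0168), a call lost without either sub2del array, and stood at -0.36 in tho2del (0.0504). RPA43 read 3279 ± 536 in WT and 3502 ± 297 in hpr1del (0.10, 0.571). Of the 6 stalk genes, 0 passed the test in hpr1del and 0 had an unadjusted p under 0.05, beside 45.8% of all probe sets called there.

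In the TFIIF-like dimer of polymerase I the partners differed. RPA34, on chromosome X, read 4123, 5151 and 5175 in WT, 5650, 5496 and 5401 in hpr1del, 9473 and 9755 on the sub2del arrays and 6890 and 6631 on those of tho2del. All mutant arrays lay above WT, and the sub2del arrays above all others. It rose by 1.00 ± 0.10 in sub2del (limma adjusted p = 5.06e-05) and 0.50 ± 0.10 in tho2del (0.00301). With chromosome medians subtracted these were 0.42 (0.0147) and 0.69 (0.00122). RPA49, on chromosome XIV, read 4464 ± 408 in WT and 3762 ± 242 in sub2del (-0.24 ± 0.10, 0.0535), and had no call in hpr1del or tho2del.

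The assembly platform gave few calls. RPC19, shared by polymerases I and III, rose in tho2del from 5482 ± 1167 to 7408 ± 162 (0.46 ± 0.16, limma adjusted p = 0.0366), a call lost without either tho2del array. WT replicate 1, at 4149, lay far below the other WT arrays, at 6322 and 5974. Its partner RPC40 stood at -0.13, -0.23 and -0.17 with no call. In polymerase II, RPB3 stood at 0.14 in hpr1del and -0.18 in sub2del, and RPB11 at 0.06, 0.14 and 0.17, with no call. Of the 4 platform genes 0 passed in hpr1del and 0 in sub2del, with 0 and 1 at an unadjusted p under 0.05. Over all probe sets 45.8% and 61.2% were called in these mutants.

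Between the polymerases, the median deviation from the WT mean was taken on each array over the genes of a class with a value on all 10 arrays, which left out RPA43, RPB3 and RPC37. For 6 polymerase I genes it was -0.16, 0.07 and 0.10 on the WT arrays, -0.01, -0.04 and -0.08 in hpr1del, -0.31 and -0.40 on the sub2del arrays, and -0.07 and -0.18 on those of tho2del. The sub2del arrays thus lay below all WT arrays. For 9 polymerase III genes it was -0.11, 0.03 and 0.15 in WT, 0.31, 0.15 and 0.14 in hpr1del, 0.16 and 0.21 on the sub2del arrays, and 0.27 and 0.26 on those of tho2del. The sub2del and tho2del arrays were above all WT arrays, while hpr1del replicate 3 lay below WT replicate 3. With RPC37 included on the WT and hpr1del arrays, the lowest hpr1del value was 0.13 and the highest of WT 0.11. For 6 polymerase II genes the values were -0.09, 0.06 and 0.04 in WT, 0.01, -0.06 and -0.02 in hpr1del, -0.09 and -0.20 on the sub2del arrays, and 0.05 and 0.06 on those of tho2del. The 5 common genes lay at -0.24, 0.10 and 0.14 in WT, 0.28, 0.24 and 0.25 in hpr1del, 0.51 and 0.33 on the sub2del arrays, and 0.53 and 0.57 on those of tho2del. WT replicate 1 was the lowest WT array in each class, while the same median over all probe sets was -0.02 there. Of the 7 polymerase II genes 0 passed the test in hpr1del, and 0 had an unadjusted p under 0.05, beside 45.8% of all probe sets called there. The polymerase I median in sub2del was -0.50 over its 4 tested genes off chromosomes II and X, with 3 that fell. For polymerase III it was 0.18 over 8, with 3 that rose. Among all probe sets off these chromosomes 43.8% were lower and 16.3% higher. With chromosome medians subtracted, 1 of these polymerase I genes was lower and 5 of the polymerase III genes were higher. After chromosome medians were subtracted, the medians of the log2 changes in sub2del were -0.10, 0.06 and 0.37 over the tested genes of polymerases I, II and III.

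Compared directly, tho2del and hpr1del differed in 7 of 28 subunit genes, 6 higher and 1 lower in tho2del, against 38.6% called over all probe sets, 15.7% higher and 22.8% lower. Beside RPO31 and RPO21 these were RPB4 (0.50 ± 0.10, limma adjusted p = 0.00453), RPC34 (0.44, 0.0112), RPC31 (0.37, 0.00552), RPB5 (0.44, 0.0147) and RPA34 (0.29, 0.0488). The calls of RPO21, RPB4, RPO31 and RPC31 were kept without each array in turn, that of RPC34 was lost without tho2del replicate 2, and those of RPB5 and RPA34 without either tho2del array or without hpr1del replicate 2 or 3 (for RPA34 also replicate 1). Hpr1 and Tho2 are core subunits of the same complex.

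Between sub2del and hpr1del 13 of 29 differed, 7 higher and 6 lower in sub2del, against 52.0% of all probe sets called, 16.2% higher and 35.7% lower. The 5 genes of chromosomes II and X were among the higher ones, at 0.80 to 1.27. With chromosome medians subtracted 6 were called, 5 higher and 1 lower, and 4 of them were among the 13. Between sub2del and tho2del 5 of 28 differed, 4 higher and 1 lower in sub2del, against 22.1% of all probe sets called, 8.86% higher and 13.2% lower. The higher ones were RPA12 (0.78 ± 0.12, limma adjusted p = 0.00335), RPB4 (0.78 ± 0.11, 0.00184), RPC17 (0.83 ± 0.14, 0.00446) and RPA34 (0.51 ± 0.11, 0.0133), which all lie on chromosome X, and the lower was RPA190 (-0.29, 0.0195). The calls of RPA34 and RPA190 were lost without any of the 4 arrays. After chromosome medians were subtracted limma called 0 of 28 subunit genes between these strains, with 1 at an unadjusted p under 0.05, and over all probe sets the calls went from 956 to 205. RPA12 and RPB4 then differed by 0.0023 and 0.0018. The subtraction also raised both genes in tho2del against WT, from 0.48 to 0.68 and from 0.45 to 0.65. The median change of chromosome X in tho2del was -0.05, and what these small differences reflect was not tested.

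Factors that work with the polymerases were counted in lists from general knowledge. Over all probe sets 23.0%, 20.9% and 24.8% were higher and 22.8%, 40.2% and 32.8% lower in hpr1del, sub2del and tho2del. After chromosome medians were subtracted the shares were 29.8% and 28.3% in sub2del and 30.8% and 26.9% in tho2del. Of the 9, 7 and 8 polymerase I initiation factor genes tested in hpr1del, sub2del and tho2del, 3, 3 and 3 rose and 2, 2 and 2 fell, with 2 higher and 1 lower in sub2del after that subtraction. RRN5, of the upstream activating factor, fell by 0.82, 1.01 and 0.80 on the log2 scale, from 527 ± 74.7 in WT to 290.2 ± 8.64, 252 ± 7.03 and 294 ± 9.74. RRN7, of the core factor and on chromosome X, rose by 1.47 ± 0.12 in sub2del, or 0.89 after chromosome medians were subtracted, and by 0.42 in tho2del. RRN11, of the core factor, rose by 0.60 in hpr1del and 1.41 in tho2del and was untested in sub2del.

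Of the 10 polymerase III factor genes, 2, 4 and 3 rose and 2, 2 and 2 fell. The subtraction of chromosome medians gave 8 higher and 1 lower in sub2del, and 5 and 1 in tho2del. MAF1, the repressor of polymerase III, read 1274, 1086 and 1126 in WT, 931, 876 and 934 in hpr1del, 473 and 564 on the sub2del arrays and 553 and 604 on those of tho2del. The groups did not overlap with WT. MAF1 fell in each mutant (-0.34, -1.14 and -0.99, limma adjusted p = 0.0150, 2.40e-05 and 6.35e-05). BDP1, a TFIIIB subunit, rose in each (0.34, 0.94 and 0.75). TFC1, of TFIIIC and on chromosome II, rose by 1.12 in sub2del, or 0.48 after chromosome medians were subtracted.

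Of the 32, 28 and 25 general factor genes of polymerase II tested, 10, 9 and 8 rose and 3, 5 and 2 fell. Under that subtraction 17 were higher and 2 lower in sub2del, and 12 and 2 in tho2del. SSL2, the TFIIH translocase, rose by 0.78, 0.46 and 0.73, and TAF11, a TFIID subunit, by 0.90, 0.58 and 0.84. TAF5, a TFIID and SAGA subunit on chromosome II, rose in sub2del (0.64), and its value was -0.01 after chromosome medians were subtracted. Of the 8, 7 and 5 genes for polymerase assembly and nuclear import tested, 3, 3 and 2 rose and 1, 1 and 1 fell. IWR1, whose product carries polymerase II into the nucleus, read 872 ± 88.3 in WT and 924 ± 34.3 in hpr1del. It rose to 1787 ± 125 in sub2del (1.02 ± 0.11, limma adjusted p = 5.51e-05) and 1527 ± 164 in tho2del (0.80 ± 0.11, 0.000269). GPN2, a GTPase of polymerase assembly, rose in sub2del (0.60), and RTR1, a phosphatase of the Rpb1 C-terminal domain, in hpr1del (0.40).

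Subunit genes of polymerases I and III are known to be transcribed with the ribosome biogenesis genes through regulators of the PAC and RRPE promoter motifs. Of 5, 4 and 4 regulator genes tested in hpr1del, sub2del and tho2del, 3, 4 and 4 fell, beside 22.8%, 40.2% and 32.8% of all probe sets, and 0 rose, also at an unadjusted p under 0.05. STB3 and TOD6 had no call in hpr1del (0.14 and 0.0046), and TOD6 was untested in the other mutants. After the subtraction 3, 4 and 3 were lower, and STB3 lost its call in tho2del (-0.16, limma adjusted p = 0.132). SFP1, an activator of growth genes, read 2568, 3183 and 2736 in WT, 1562, 1636 and 1682 in hpr1del, 1290 and 1526 on the sub2del arrays and 1426 and 1645 on those of tho2del. All mutant arrays lay below WT. Its log2 changes were -0.79 ± 0.10, -0.998 ± 0.12 and -0.87 ± 0.12 (limma adjusted p = 0.000478, 0.000102 and 0.000271). DOT6, a repressor that binds PAC, fell by 0.30, 1.07 and 0.91, and SCH9, a growth kinase under TORC1, by 0.29, 0.93 and 1.04 in hpr1del, sub2del and tho2del.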

How the data were processed

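The authors deposited 1 linear intensity per probe set and array. How these were summarised, background-corrected and scaled is not given in the sources used here, and scanner files were not used here. Of 5716 probe sets, 218 without a gene were left out, and 5498 were named through the platform annotation and the RefSeq R64 gene table, which also gave chromosomes and gene lengths. Log2 of intensity plus 16 over all 10 arrays was fitted to strain means with empirical Bayes moderation (limma 3.58.1, R 4.3.3). A probe set was tested where both strains compared had at least 2 values, and an empty cell removed just that array from the fit of its probe set. P-values were adjusted by Benjamini-Hochberg over all probe sets tested in a comparison and called under 0.05. Errors are SE for log2 changes and SD for intensities.

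All 31 subunit genes were named, and from each list up to 3 genes with the lowest adjusted p against WT. SUA7, TFC3 and RBA50 were added afterwards as members of their lists that read lower. The members and lists were chosen with earlier results of these data known. The number of arrays limits the precision, and fold changes of intensity plus 16 understate those of dim genes. Class medians by array in the report were limited, after the data were seen, to genes with a value on all arrays. The fit was tested on simulated data. Alternatives were quantile normalization, array medians subtracted, other offsets, a filter on dim probe sets, complete probe sets, a replicate block, only the arrays compared, array weights, each array left out, and, added after the data were seen, chromosome medians subtracted. Promoter motifs, a planned step, were not analysed here. Genome coordinates are not given, since no source here names the build of the array design.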

Additional observations from a re-analysis of the deposited data

How the results depend on the processing

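The 88 results for single subunit genes against WT were set against the planned other settings in 1259 comparisons, of which 0 reversed a call, 58 lost one and 65 gained one. Subtracting chromosome medians, which was not planned, is outside this count. It lost 1, 4 and 1 calls in hpr1del, sub2del and tho2del and gained 2 in hpr1del and 5 in sub2del. Between mutants, subtracting chromosome medians turned RPA135 in sub2del against hpr1del to 0.033 and RPA34 in sub2del against tho2del to -0.27. The replicate numbers do not pair arrays (correlations of same-numbered deviations between -0.21 and 0.09). With the replicate block, 5, 13 and 14 subunit genes were called in hpr1del, sub2del and tho2del against WT, 6 in tho2del and 8 in sub2del against hpr1del, and 4 in sub2del against tho2del. Array weights, which gave WT replicates 1 and 2 weights of 0.11 and 0.22, called 18 (8 higher, 10 lower) for hpr1del against WT, 21 (10 and 11) for sub2del and 19 (12 and 7) for tho2del, 15 in tho2del against hpr1del and 10 in sub2del against tho2del, and 4149, 2759 and 1573 of all probe sets in hpr1del against WT, tho2del against hpr1del and sub2del against tho2del. With only the arrays compared the counts were 10 in tho2del against WT and 16 (all probe sets 2757) in tho2del against hpr1del. Subtracting chromosome medians left 6 in sub2del against hpr1del and 0 (all probe sets 205) against tho2del, where array medians gave 637 probe sets.

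Leaving out single arrays gave 5 to 11, 12 to 20 and 9 to 19 subunit genes against WT in hpr1del, sub2del and tho2del, 4 to 6 and 8 to 10 for tho2del and sub2del against hpr1del, and 3 to 4 for sub2del against tho2del. Over all probe sets the ranges were 1841 to 2789, 2390 to 2995, 2066 to 2817, 1051 to 1354, 1780 to 1992 and 386 to 574. A strain left with 1 array is assumed to vary like the others. The mean over the sub2del arrays of each array's class median, which differs slightly from the median of the genes' changes, moved for polymerase II from -0.18 to -0.080 (quantile), -0.053 (array medians) and 0.055 (chromosome medians), and for polymerase III from 0.18 to 0.31 and 0.36 under the latter 2 settings. Over all subunit genes the same mean moved from 0.15 to 0.28 and 0.29, and under chromosome medians polymerase I stood at -0.098 and the genes shared by I and III at 0.30. The share of calls that were higher went from 34.2% to 46.5% in sub2del against WT (array medians), from 40.2% to 69.9% in sub2del against tho2del and from 40.8% to 29.9% in tho2del against hpr1del (quantile). Under chromosome medians it was 51.2% and 53.0% in the first and last of these, and it went from 43.0% to 53.3% in tho2del against WT and from 31.2% to 49.1% in sub2del against hpr1del. The cause of these moves was not tested.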

Other observations

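RPO41, which encodes the mitochondrial RNA polymerase and is no part of the nuclear enzymes, read 2494, 2119 and 2140 on the WT arrays. It read 1777, 1962 and 2007 in hpr1del, 2091 and 2123 on the sub2del arrays and 2046 and 1813 on those of tho2del. The hpr1del and tho2del arrays lay below all WT arrays, and sub2del overlapped WT. Its log2 differences of -0.23, -0.09 and -0.22 in hpr1del, sub2del and tho2del did not pass the test (limma adjusted p = 0.0610, 0.445 and 0.0834).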
